A study of Mus musculus with 4 samples.

Results

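The cytosolic ribosomal protein genes were examined in the peak lists of GR and E2A ChIP-Seq from mouse liver. A gene was a member when its symbol was Rpl or Rps followed by digits and at most 1 letter, or was Rpsa, Rplp0, Rplp1 or Rplp2, so that the Rps6k kinases stayed out. By this rule 80 of 21924 protein-coding genes of the mouse annotation are members, and 56 of them were named as the gene of at least 1 peak. They account for 92 of 17545 deposited peaks, with 13 and 58 in GR replicates 1 and 2 and 13 and 8 in E2A replicates 1 and 2.

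Ribosomal proteins assemble with ribosomal RNA into the small (40S) and the large (60S) subunit of the ribosome. Their genes are transcribed in every cell, mostly from CpG-rich promoters, and their mRNAs begin with a C followed by a run of pyrimidines, the 5′ TOP element, through which mTOR signalling controls their translation. GR, the glucocorticoid receptor, binds the palindromic glucocorticoid response element (GRE), and E2A encodes the basic helix-loop-helix factors E12 and E47, which bind the E-Box CANNTG. As genes in use in all cells, the ribosomal protein genes served here as a housekeeping promoter set beside all other promoters.

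The 4 libraries were made from snap-frozen livers of male C57BL/6 mice on chow, all with the genotype E47+/+, collected at ZT 10, that is 10 h after lights on. The methods give an age of 10 to 16 weeks for the mice of the study. GR was precipitated with a Proteintech antibody to the receptor and E2A with sc-349 of Santa Cruz, each in 2 replicates. The sample labels call the livers untreated, whereas a description of the supplementary peak table calls them treated with dexamethasone, a synthetic glucocorticoid, so that the treatment is not settled. The free-text descriptions of both E2A samples name a GR ChIP, and that of replicate 2 an E47-/- liver. Titles, antibody and genotype entries name E2A in wild type and were followed. For GR, replicates are numbered as in the sample titles, whereas the file names number them in reverse. The E2A antiserum is directed at the products of the gene, and E12 and E47 cannot be told apart. The study states that both factors were precipitated from the same livers, but not which GR replicate belongs to which E2A replicate.

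The lists held 4291 and 7334 GR peaks and 4028 and 1892 E2A peaks, after the authors had set all libraries of a ChIP to the same number of read pairs. Promoter peaks, as the deposited annotation calls them, made up 34.3% and 57.4% of the GR lists and 41.2% and 37.1% of the E2A lists. Of 9 hepatocyte markers such as Alb and Hnf4a, 8 and 9 had a GR promoter peak in replicates 1 and 2 and 4 had an E2A promoter peak in each E2A replicate. None of 6 B and T cell markers such as Cd79a and Cd3e had a promoter peak, which allows a share of up to 50%. Of 4 macrophage markers 1, Cd68, had a GR promoter peak, in replicate 2. None of 3 stellate and 3 endothelial markers had a promoter peak, lists too small to bound a share. Of the endothelial markers 2 had GR peaks outside promoters. The lists give no read count, height or q-value, so the depth and strength behind a peak are unknown, and all intervals below cover counting error only.

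The start sites at which these peaks lay are shown first, since the 5′ TOP element begins there. The 30 bases from 10 before to 20 from the start are given 5′ to 3′ on the gene's strand for the 9 members that had both a GR and an E2A promoter peak and an entry in the promoter table, taken from RefSeq on GRCm38.p6 (mm10). Capitals mark a C-led run of at least 5 pyrimidines that begins within 10 bp of the annotated start. Such a run is a stretch of letters near that start and is not shown to be a 5′ TOP element. Rpl15, the eL15 core protein of the large subunit, had no peak in any library and is added for comparison. It is 1 example among the 24 members whose symbol no peak carried, of which Rpl10 and Rps4x, for instance, hold no run.
Rpl6, chr5:121204491-121204520 (+): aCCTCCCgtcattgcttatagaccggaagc
Rpl10a, chr17:28328461-28328490 (+): gCCCCCCCagcggccgcaaactgcagcgcc
Rpl13, chr8:123102340-123102369 (+): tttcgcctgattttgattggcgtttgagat
Rpl34, chr3:130730318-130730347 (-): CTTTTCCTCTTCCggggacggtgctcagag
Rpl35a, chr16:33056472-33056501 (+): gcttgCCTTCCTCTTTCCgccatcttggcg
Rps12, chr10:23787190-23787219 (-): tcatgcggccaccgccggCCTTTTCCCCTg
Rps23, chr13:90923112-90923141 (+): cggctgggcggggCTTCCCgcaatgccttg
Rps24, chr14:24490668-24490697 (+): gctggggtCCTTCCTTgcgcgttgatatga
Rps27l, chr9:66946076-66946105 (+): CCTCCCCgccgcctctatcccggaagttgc
Rpl15, chr14:18270967-18270996 (-): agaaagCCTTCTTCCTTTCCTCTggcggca

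Where a gene has several annotated starts, one with a run is shown. The runs shown are between 6 bases, in Rpl6 and Rps23, and 13, in Rpl34 and Rpl35a, Rpl13 has none, and that of Rpl15 has 17. Those of Rpl6, Rpl10a and Rps27l end before the annotated start, and that of Rps12 begins only at base 9 from it. Over all 15 entries of these 9 genes 60% hold a run, beside 68.4% of the 19 entries of members without a GR promoter peak. Peaks are counted by symbol here, and some of these 19 entries lie in GR peaks assigned to a neighbour. The run of Rpl35a is followed directly by the letters of a YY1 match on the opposite strand.

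GR replicate 2 had a promoter peak at 54 of the 80 ribosomal protein genes (67.5%, 95% Wilson interval 56.6 to 76.8%), whereas GR replicate 1 had one at 11 (13.8%, 7.85 to 23.0%). Over all protein-coding genes the shares were 17.7% in GR replicate 2 and 6.1% in GR replicate 1. E2A replicate 1 had a promoter peak at 11 ribosomal protein genes (13.8%) and E2A replicate 2 at 7 (8.75%, 4.30 to 17.0%), beside 7.07% and 2.94% of all protein-coding genes. The share of ribosomal protein genes thus stood above that of the other coding genes in each library, 2.27 and 3.85 times in the GR replicates and 1.95 and 3.0 times in the E2A replicates. The set was picked with earlier results of these data known, so no test of this surplus was made.

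**Figure D1:**
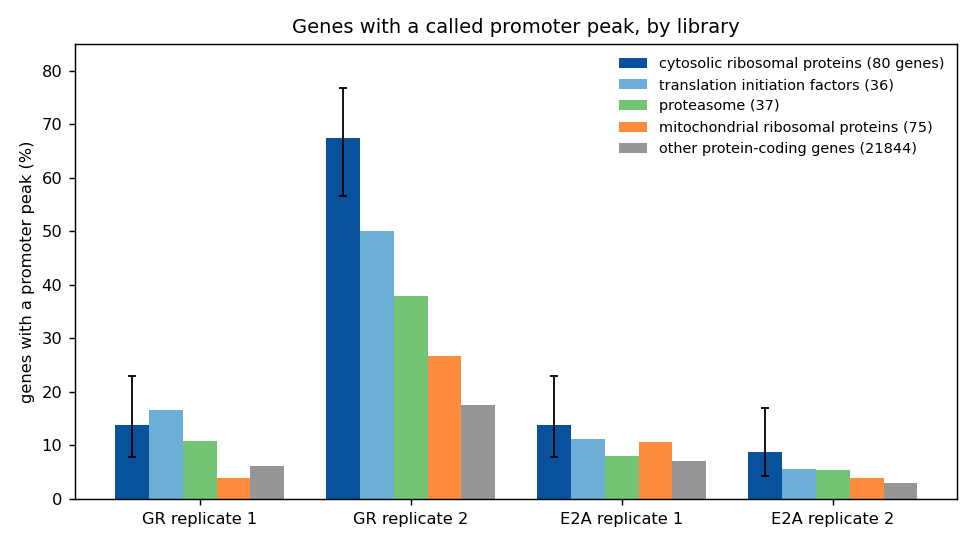
Share of genes with a called promoter peak (%) in each of the 4 libraries, for ribosomal protein genes, 3 other gene lists and all other protein-coding genes. Error bars are 95% Wilson intervals of the ribosomal protein genes, and GR replicate 2 holds the highest share, 67.5%.

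Over both GR replicates 55 members (68.8%) had a promoter peak in at least 1, beside 18.6% of all coding genes, and 10 (12.5%, 6.93 to 21.5%) in both, beside 5.24%. Of the 55, 44 were called in replicate 2 alone and 1 in replicate 1 alone. Without GR replicate 2 the count is 11, so that 1 library decides it. In E2A, 12 members (15%, 8.79 to 24.4%) had a promoter peak in at least 1 replicate, beside 7.92% of all coding genes, and 6 (7.5%, 3.48 to 15.4%) in both, beside 2.08%. Without E2A replicate 1 the E2A count is 7.

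The number of members with a promoter peak was 11 and 54 in the GR libraries (mean 32.5 ± 30.4, SD, n = 2) and 11 and 7 in the E2A libraries (9 ± 2.83, SD, n = 2). The ranges of the ChIPs touch at 11, and the difference of 23.5 genes was smaller than the spread between the GR replicates (two-sided exact permutation test over the libraries, p = 0.667). With 2 libraries against 2 the smallest p this test allows is 0.333, so that no difference between GR and E2A could be called. The antibody and the number of read pairs kept, 18 mio for GR and 22 mio for E2A, change together and cannot be told apart.

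All 12 members with an E2A promoter peak also had a GR promoter peak (15% of members beside 5.66% of all coding genes with both), and the 0 of 12 without GR allows a share of up to 25%. None of the 80 was called in all 4 libraries, which allows up to 3.75%, while 8 were called in 3 libraries, 12 in 2 and 35 in 1. Of all coding genes 2.08% had E2A in both replicates, so at most that share was called in all 4 libraries. The spread over 3, 2 and 1 libraries was not counted for all genes, so no trait of the members is read from it. The GR peak behind this overlap was called in replicate 2 at 11 of the 12 genes together with E2A replicate 1 and at 7 together with E2A replicate 2, and without GR replicate 2 only 2 members keep both factors. These 2, Rpl13 and Rpl10a, are the only members with GR in both replicates and E2A in at least 1.

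Rpl13, which encodes the large-subunit protein eL13, had GR peaks of 318 bp (chr8:123102402-123102719) and 559 bp (chr8:123102115-123102673) in replicates 1 and 2, and an E2A peak of 537 bp (chr8:123102100-123102636) in replicate 1. The GR replicate 1 peak lay downstream of the start without covering it, with its centre 210.5 bp from it, and the other 2 peaks covered the start with centres at 44 and 18 bp. No E2A peak was listed there in E2A replicate 2.

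Rpl10a encodes uL1, the protein at the mobile stalk past which spent tRNA leaves the ribosome. Its GR peaks spanned 277 bp (chr17:28328415-28328691) and 405 bp (chr17:28328452-28328856), with centres at 82 and 183 bp from the start. Its E2A peak, of 338 bp (chr17:28328261-28328598), was listed in replicate 2 and not in replicate 1, and its centre lay at -41.5 bp, where a negative distance means upstream. Both genes thus lack a peak in 1 of the E2A lists, a different one for each.

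GR in at least 1 replicate was listed at similar shares of the 60S and 40S genes, 33 of 49 (67.3%) and 22 of 31 (71.0%). Calls in both GR replicates were found for 9 of the 49 large-subunit genes (18.4%), namely Rpl10a, Rpl13, Rpl14, Rpl27, Rpl28, Rpl36, Rpl38 and the acidic stalk proteins Rplp1 and Rplp2, which recruit translation factors. Among the 31 small-subunit genes 1 was called in both (3.23%), Rpsa, whose product is also known as the laminin receptor. In GR replicate 1 the split was 9 of 49 against 2 of 31. No test was made of this split, which was noticed after the values were seen, and these names are given for completeness of the count.

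E2A promoter peaks were listed at 8 of 49 large-subunit genes (16.3%) and at 4 of 31 small-subunit genes (12.9%). The 6 members with E2A in both replicates were Rpl7, Rpl21, Rpl35a, Rps12, Rps23, which lies at the decoding centre, and Rps24. Rpl35a and Rps24 are known from Diamond-Blackfan anaemia, an inherited failure of red cell production caused by loss of ribosomal proteins. E2A was listed in replicate 1 alone at Rpl6, Rpl13, Rpl17, Rpl34 and Rps27l, a p53-responsive paralogue of Rps27, and in replicate 2 alone at Rpl10a. All 6 members with E2A in both replicates had GR in replicate 2 and not in replicate 1. These members were named from their calls, after the values were seen.

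Members with GR in replicate 2 alone included Rps6, the substrate of the S6 kinases, Rplp0, the base of the stalk, and Rpl5 and Rpl11, which with 5S rRNA bind Mdm2, the ubiquitin ligase of p53. Rps19, the gene first tied to Diamond-Blackfan anaemia, belonged there as well. These 5 were chosen for what they are known for, after the values were seen.

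**Figure D2:**
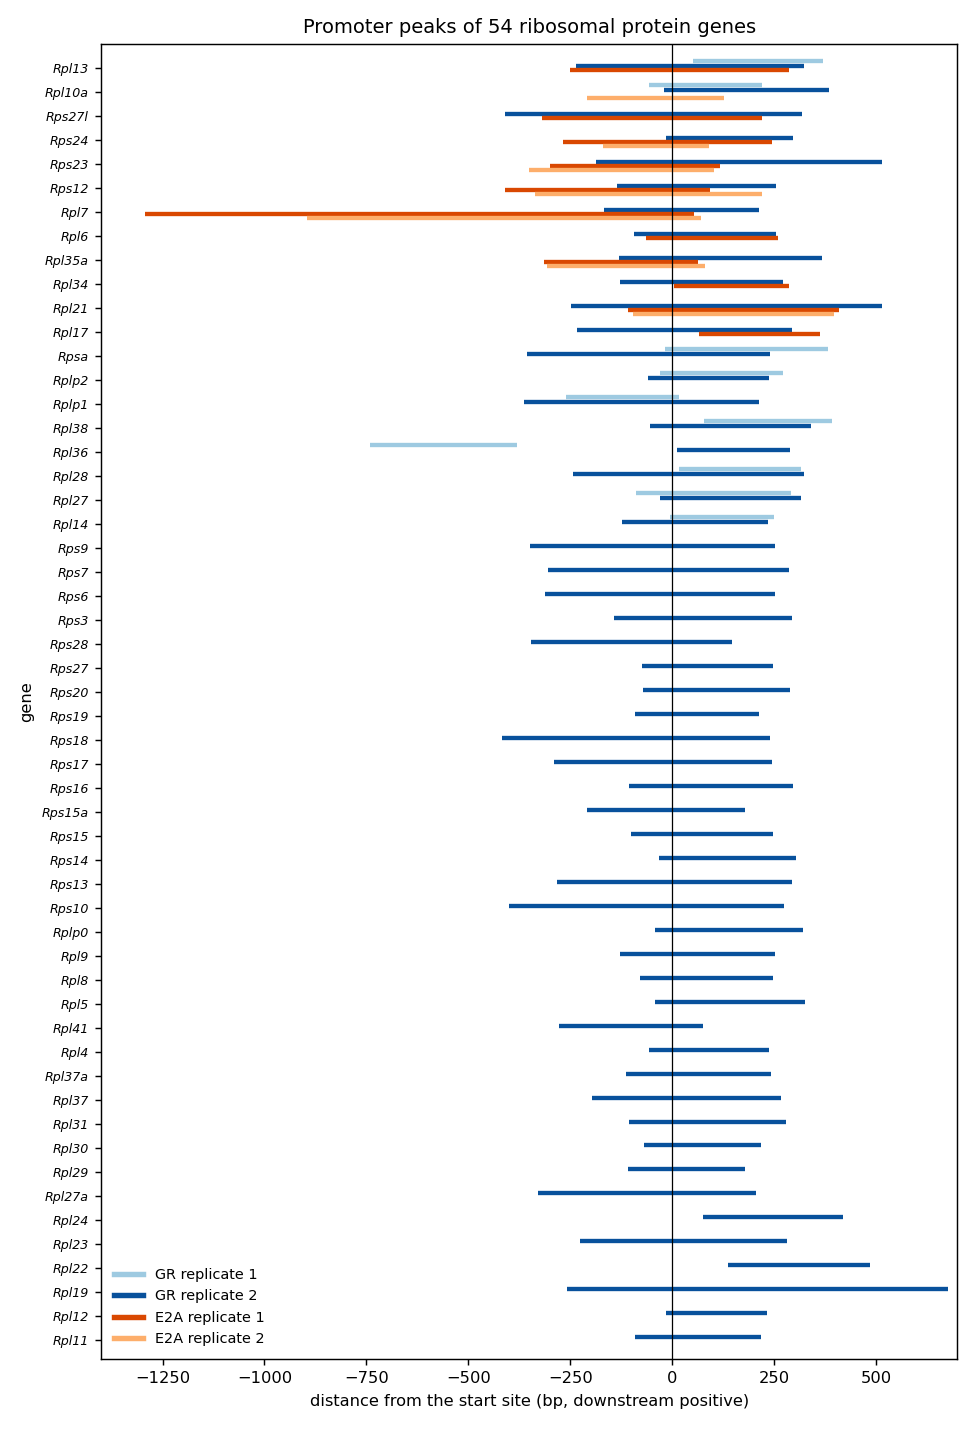
Extent of each promoter peak around the annotated start site (bp, downstream positive) for the 54 ribosomal protein genes with a GR replicate 2 promoter peak, coloured by library. Most genes carry only a GR replicate 2 peak over the start, 12 genes carry E2A peaks, and the longest peaks, of 1348 and 968 bp, belong to E2A at Rpl7.

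No peak of any kind carried the symbol of 24 members, among them Rpl3, Rpl3l, Rpl7a, Rpl10, Rpl10l, Rpl13a, Rpl15, Rpl18, Rpl23a, Rpl26, Rpl32, Rpl35, Rpl36a, Rpl39, Rpl39l, Rps2, Rps4x, Rps21, Rps25, Rps26 and Rps29. Rpl3l, Rpl10l and Rpl39l are paralogues used mainly in muscle or testis, whereas the rest serve in all tissues. The 4 members on chromosome X, Rpl10, Rpl36a, Rpl39 and Rps4x, are all in this list. How many of all coding genes on that chromosome had no peak was not counted, so nothing is read from this. Over the whole series the peaks carried 6521 gene symbols of all gene types, so most coding genes had none either.

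Some member starts lay in peaks that the deposited annotation gives to a neighbour. Peaks covering the start of Rpl18, Rpl26 and Rpl7a in GR replicate 2 were assigned to Sphk2, Gm15772 and Med22. Rps2 had a peak over its start in both GR replicates, assigned to Snora78, a small nucleolar RNA, and Rps25 had one in GR replicate 2 and one in E2A replicate 1, both assigned to Trappc4. Rps27a, which encodes a ubiquitin fusion protein, had such peaks in GR replicate 2 and in both E2A replicates, assigned to Clhc1. Its only peak by symbol lay in an intron outside Rps27a itself. Counted by position, within 1000 bp of the GENCODE start and whatever the symbol, 60 members had GR and 14 had E2A, with 12, 60, 13 and 8 in the 4 libraries.

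Neighbouring starts blur such assignments. Another start lay within 1000 bp of 16 of the 80 member starts, and for 10 it belonged to a divergent coding gene, such as Trappc4 beside Rps25 and Iqcg beside Rpl35a. A peak there cannot be given to 1 gene. A small nucleolar RNA lay inside 29 members, 19 of them with GR, beside 55 of all 80 members with GR, a similar share. Named pseudogenes, of which many ribosomal protein genes have several and which can take reads out of a uniquely mapped set, numbered a median of 2 for members with a GR promoter peak and of 1 for members without.

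At the members GR replicate 2 was centred on the transcribed side of the start. The centres of its 54 promoter peaks lay between -100 and 312 bp from the start with a median of 68.25 bp, beside 40 bp for other promoters of this library. In GR replicate 1 the median was 120.5 bp, beside 36. The start itself was covered by 51 of 54 member peaks in GR replicate 2 (94.4%, beside 80.9% at other promoters) and by 7 of 11 in GR replicate 1 (63.6%, beside 68.7%).

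E2A peaks sat further upstream. Their median centre was at -11 bp in replicate 1 and at -58 bp in replicate 2, beside -73.5 and -82.25 bp at other promoters. The start was covered by 9 of 11 and 7 of 7 member peaks. Within genes, the GR replicate 2 centre lay downstream of the E2A replicate 1 centre in 7 of 11 members and downstream of the E2A replicate 2 centre in 6 of 7, by a median of 26 and 224.5 bp. For other genes with both, it lay downstream in 66.3% of 944 and 68.5% of 409, by a median of 77 and 93.5 bp. In each of these pairs of libraries most genes, members or not, thus had GR downstream of E2A.

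**Figure D3:**
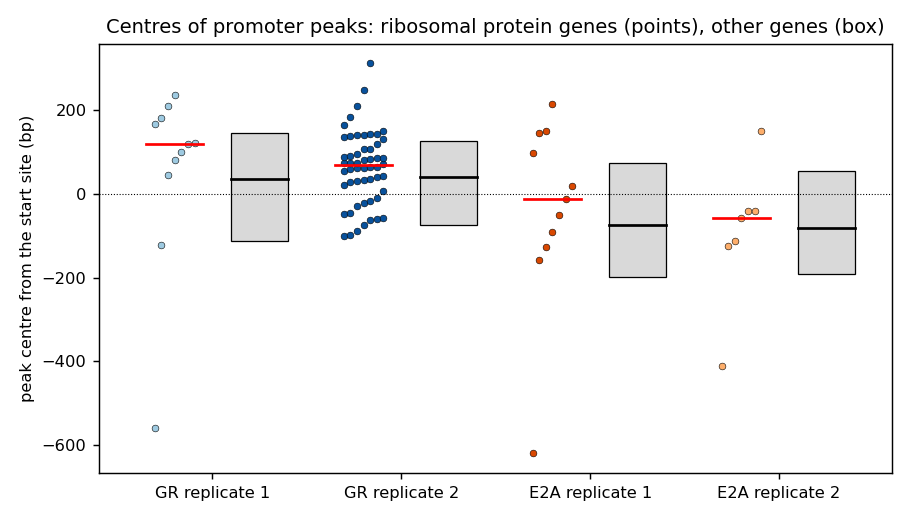
Distance of promoter peak centres from the start site (bp, downstream positive) in each library, with 1 point per ribosomal protein peak and its median in red, beside a box from the lower to the upper quartile of all other promoter peaks with the median as a black line. Medians of ribosomal protein peaks are 120.5 and 68.25 bp in GR and -11 and -58 bp in E2A.

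The pairs that part most are Rpl7, whose E2A centres lay at -620.5 and -412.5 bp while its GR replicate 2 centre lay at 22.5 bp, and Rps23, with E2A centres at -90.5 and -124.5 bp and a GR centre at 164.5 bp. At Rpl6, Rpl21 and Rps27l the GR and E2A centres fell within 18.5 bp of each other. At Rpl36 the GR peaks of the replicates did not meet, since that of replicate 1 was centred at -560 bp and that of replicate 2 at 150.5 bp. Rpl36 is thus counted among the genes with GR in both replicates without sharing a region.

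By their medians, member peaks were narrower than other promoter peaks in both GR libraries and wider in both E2A libraries. The medians were 316 bp in GR replicate 1 and 391 bp in GR replicate 2, beside 387 and 441 bp at other promoters, and 506 and 454 bp in the E2A replicates, beside 418 and 377 bp. None was wider than 2000 bp, whereas 91 other promoter peaks of GR replicate 2 were. The widest merged regions were those of E2A at Rpl7, of 1366 bp, of GR at Rpl19, of 938 bp, and of GR at Rpl21, of 764 bp. The narrowest were those of GR at Rpl12, of 250 bp, and at Rpl36, of 278 bp, and that of E2A at Rpl34, of 283 bp.

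Peaks that shared at least 1 bp between replicates were merged into regions, which gave 56 GR and 12 E2A promoter regions for the members. Of the 56 GR regions, 12 met an E2A region (21.4%, 12.7 to 33.8%), beside 30.2% of all 4433 GR promoter regions and 30.3% of those of other genes. All 12 E2A regions met a GR region (75.8 to 100%), beside 70.3% of all E2A promoter regions. Without E2A replicate 1 the share of GR regions that met E2A is 12.5%.

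The replicates of GR split these regions. Only 10 of the 56 were called in both replicates (17.9%), that of Rpl36 not among them, whereas 28.4% of 4377 regions of other genes were. Another 45 were called in replicate 2 alone (80.4%, beside 66.6%). Among regions of replicate 2 alone E2A was met by 22.2% at the members (10 of 45, 12.5 to 36.3%) and by 22.7% elsewhere. Among regions in both replicates it was met by 2 of 10 at the members (20%, 5.67 to 51.0%) and by 48.5% of 1242 elsewhere (45.7 to 51.3%). The intervals of these shares overlap. When both replicates were required of E2A too, 0 of the 10 met E2A, which allows a share of up to 30%, beside 17.7% of the others.

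**Figure D4:**
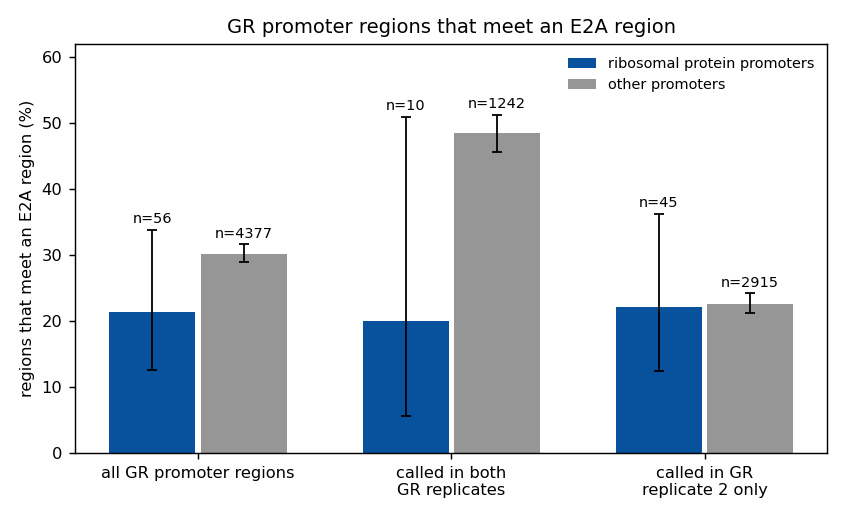
Share of GR promoter regions (%) that share at least 1 bp with an E2A region, for ribosomal protein genes and other genes, over all regions and by the GR replicates that called them. Bars carry 95% Wilson intervals and the number of regions, and the groups stand at 22.2 and 22.7% for replicate 2 alone and at 20 and 48.5% for both replicates.

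Seen per library, 10 of 11 GR replicate 1 promoter peaks at members met a GR replicate 2 peak (90.9%, beside 84.9% at other promoters), and 9 of 54 the other way round (16.7%, 9.02 to 28.7%, beside 29.8%, 28.5 to 31.3%). For E2A, 6 of 11 replicate 1 peaks (54.5%, beside 29.4%) and 6 of 7 replicate 2 peaks (85.7%, beside 70.7%) met the other replicate. The GR peaks that set the members apart were thus mostly not called a second time, while 6 of the 12 E2A genes were. Whether the replicate 2 livers differed in a way that bears on these promoters was not tested.

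Away from promoters 4 members had peaks. Rplp1 was the nearest gene of intergenic GR peaks 105474 and 84853 bp away in replicate 1 and 101842, 84892 and 70653 bp away in replicate 2, and of an E2A peak 105481 bp away in replicate 1. The GR replicates overlapped at the peaks 84853 and 84892 bp away, and the E2A peak lay at the farthest GR peak of replicate 1. Rpl37a was nearest to an intergenic E2A replicate 1 peak at 14797 bp and Rpl19 to an E2A replicate 2 peak at 4044 bp. A GR replicate 2 peak given to Rps27a lay in an intron outside that gene, at -65130 bp from the start used. Nearest-gene naming does not say that these peaks act on the member.

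Base composition was examined next, since CpG-rich promoters were listed more often in general. The RefSeq promoter table, with windows from 250 bases before to 50 after each start, held 72 entries for 60 of the 80 members. The member promoters had a median GC content of 57.8%, beside 52.7% over all 32841 entries and 62.7% over the other promoters of genes with a GR promoter peak. Over the 20145 entries of coding genes alone it was 57%, close to that of the members. An observed to expected CpG ratio of at least 0.6 was found in 86.1% of member promoters. The shares were 35.8% of all promoters, 49.1% of those of coding genes and 73.3% of other GR promoters. Among genes with a promoter of at least this ratio, GR replicate 2 had a peak at 39 of 52 members (75%) and at 28.9% of 8622 other coding genes. In GR replicate 1 it was 13.5% against 9.07%, and in the E2A replicates 13.5 against 11.7% and 9.62 against 4.78%. Below that ratio GR replicate 2 had a peak at 4 of 8 members (50%) and at 6.92% of 7835 other coding genes. Among CpG-rich promoters the shares of members in GR replicate 1 and E2A replicate 1, 7 of 52 genes each, lay near those of other genes. In each library the ratio of the shares was lower there than over all genes.

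The letters of known elements were then counted in the same windows, on both strands except for the pyrimidine run. A match is a stretch of letters and no evidence of binding. A pyrimidine run as defined above was present in 55.6% of member promoters, beside 30.7% of all and 31.0% of other GR promoters. The ETS motif CCGGAAG was held by 36.1%, beside 8.86% of all promoters and 16.5% of other GR promoters, and the YY1 motif AAGATGGC by 9.72%, beside 2.75% and 4.01%. The CRE TGACGTCA was found in 6.94%, beside 1.79% of all and 3.22% of other GR promoters. The SP1 motif GGGCGG was held by 58.3%, above the 35.7% of all promoters and below the 67.6% of other GR promoters, and the NRF1 motif GCGCATGC by 4.17%, beside 2.71% and 5.89%. CCAAT was held by 30.6%, beside 37.4% and 38.0%, and TATAAA by 8.33%, beside 13.6% and 8.14%. Over promoters of coding genes alone the run was held by 31.2%, ETS by 11.9%, YY1 by 3.11% and CRE by 2.31%. SP1, NRF1, CCAAT and TATAAA were held by 47.8%, 3.65%, 37.8% and 12.2% of them. ETS letters were held by 30.2% of the 53 member promoters with GR by symbol and by 52.6% of the 19 without it. Among the latter, the letters of Rpl26 and Rps25 lay in GR replicate 2 peaks assigned to a neighbour. Those of Rps2 lay in such peaks of both GR replicates.

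Few member promoters held the letters of a GRE within the window, and E-Boxes were less frequent there than in other promoters. The window ends 50 bp past the start, but GR replicates 1 and 2 had median member centres at 120.5 and 68.25 bp. Parts of these peaks were thus not searched, nor were the 20 members without an entry. The GRE, searched as AGAACA and TGTTCT 3 bases apart with up to 2 mismatches, was held by 3 of 72 member promoters (4.17%), beside 1.85% of all and 1.13% of other GR promoters. Only that of Rpl37a lay in a peak, of GR replicate 2. The E-Box CANNTG was held by 51.4% of member promoters, beside 72.3% of all and 62.1% of other GR promoters. Of its cores, which CANNTG includes, CAGCTG was held by 5.56% beside 16.3% of all, CAGGTG by 11.1% beside 20.2%, and CACGTG, the core preferred by Myc and USF factors, by 11.1% beside 7.15%. In the 15 promoter entries of the 9 members with E2A, CANNTG was held by 40% and the GRE by 0, which allows up to 20%.

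Some of the matches inside peaks, chosen after they were seen, are shown with 6 bases to each side, 5′ to 3′ on the gene's strand, with the match in capitals. They are the GRE-like letters of Rpl37a and a CACGTG of Rpl19, both inside GR replicate 2 peaks. The others are the 3 CANNTG matches of the searched windows that lay inside E2A peaks, at Rps12, Rps23 and Rps24. Rpl7, Rpl17 and Rpl21, also with E2A, have no entry and were not searched. Parts of peaks outside the windows were not searched either. Not shown are CACGTG at Rpl23 and Rps19 inside GR replicate 2 peaks, and CAGGTG inside GR peaks at Rpl27 (replicate 1), Rpl38 (both replicates) and Rps10 (replicate 2). The coordinates are those of the match on GRCm38.p6.
Rpl37a, chr1:72711205-72711219 (+): accgccAGAACACCGAGTTCActtccg
Rpl19, chr11:98026691-98026696 (+): gaggacCACGTGaccaaa
Rps12, chr10:23787253-23787258 (-): gagttgCACATGcgcaca
Rps23, chr13:90922952-90922957 (+): ccttgtCATTTGcctgaa
Rps24, chr14:24490473-24490478 (+): aaaataCAAATGcaggac

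The match of Rps12 lay at -46.5 bp and that of Rps23 at -167.5 bp from the start, each inside the E2A peaks of both replicates and the GR replicate 2 peak. That of Rps24 lay at -202.5 bp, in the E2A replicate 1 peak alone. None of these 3 E2A-covered matches has a CAGCTG or CAGGTG core. The Rpl37a match lay at -48 bp.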

How the data were processed

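GR and E2A ChIP-Seq peaks of 4 mouse liver libraries, 2 replicates per ChIP, were analysed. Before deposit the authors mapped reads to mm10 (BWA), dropped duplicates (Picard) and non-unique pairs, reduced each library to 18 mio (GR) or 22 mio (E2A) read pairs and called peaks per sample (MACS2). The submitters' processing notes give BWA 0.7.13, Picard 1.119 and MACS2 2.1.0. The methods of the paper name the same BWA version but other versions of Picard and MACS2, so those 2 are not settled. The control, the peak threshold and the annotation tool are not given in the sources used here. The deposited values are peak start, end and width and the distance to the start of the nearest gene, all in bp and not normalized, with a gene feature and symbol. The lists hold no counts or scores.

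Samples were grouped by title. A gene had a promoter peak when a row with its symbol was annotated as promoter, a call that ends 1000 bp before and 500 bp after the start in these lists. Regions sharing at least 1 bp were merged within a ChIP and counted as shared between ChIPs. Members and starts for position counts came from GENCODE vM21, and sequences from the RefSeq table. Shares carry 95% Wilson intervals, and the libraries were compared with an exact permutation test. No test across genes was made. Some genes are counted but not reported by name here. Members and lists were chosen with earlier results of these data known. Genes named were those with GR in both replicates and E2A, with E2A and no GR, with peaks elsewhere, with the 3 widest and 3 narrowest regions or with no peak, and any others are said to be chosen afterwards. Alternatives changed the promoter definition, the replicates required, peak width, members and overlap. The code was tested on simulated data. Python 3.11.15, numpy 2.4.6, pandas 2.3.3, scipy 1.17.1 and matplotlib 3.10.9 were used.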

Additional observations from a re-analysis of the deposited data

How the results depend on the processing

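Of 81 values under 17 alternatives, 15 moved and 1 changed sign. The value that changed sign was the difference between GR and E2A libraries. This difference was counted as kept whenever it stayed positive, whatever its size. It went from 23.5 to 6 with peaks at least as wide as the median of their library. Without GR replicate 2 it was 2, and without GR replicate 1 it was 45. With both replicates required, GR fell from 55 to 10 members, E2A from 12 to 6, members with both from 12 to 0, the share of GR regions that met E2A from 21.4% to 0%, and the median distance of centres from the start was 122 bp in place of 89.5. With peaks at least as wide as the median of their library, GR was at 24 members and both at 5. With only the 1892 widest peaks of each library, GR was at 11 and both at 3, and the difference between GR and E2A libraries turned from 23.5 to -1 (1 and 11 against 7 and 7 members; exact permutation test, p = 1). Leaving out 1 library in turn gave 11 to 55 members with GR, 7 to 12 with E2A, 2 to 12 with both, 12.5 to 22.2% of GR regions that met E2A, a difference of 2 to 45 and a median distance of 85 to 123 bp. With the replicate number as a block the difference was again 23.5 (0 and 47 within the numbers; exact sign-flip test, p = 1). The numbers do not pair the samples by design, and the deviations of same-numbered libraries over 4776 genes with a promoter peak correlated at 0.13. Depth per peak is unknown, so calls near the peak threshold cannot be told from strong ones.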

Other observations

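Other gene lists of the translation machinery, fixed by symbol, give the members' neighbours in function. The named genes were chosen after their calls were seen. Over all protein-coding genes, 18.6% had GR in at least 1 replicate, 5.24% in both, and 7.92% had E2A in at least 1. Of 36 translation initiation factors, 19 had a GR promoter peak in at least 1 replicate (52.8%), 5 in both, and 5 an E2A promoter peak (13.9%). Eif1, which guides start codon selection, was called in both GR replicates and in E2A replicate 1, as was Eif3j1. Of 6 elongation factors 3 had GR and 2 had E2A. Eef1a1, which delivers tRNA to the ribosome and whose mRNA is a TOP mRNA, was called in all 4 libraries, and Eef2, the translocase, in GR replicate 1 and both E2A replicates. Of 7 other TOP mRNAs 5 had GR, with Naca in both replicates, and 2 had E2A, namely Pabpc1 and Tpt1. Of 6 ribosomal proteins outside the symbol rule, 3 had GR in replicate 2 alone, among them Rack1 and Rpl22l1, and none had E2A.

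Of 75 mitochondrial ribosomal proteins 20 had GR (26.7%), 3 in both replicates (4%), and 8 had E2A (10.7%), the last 2 shares near those of all genes. Mrpl38 was called in all 4 libraries. Of 27 genes of ribosome biogenesis 8 had GR (29.6%), 0 in both replicates, and 3 had E2A (11.1%), with Pes1 in both E2A replicates and without GR. Of 37 proteasome subunits 14 had GR (37.8%), 4 in both, and 3 had E2A (8.11%, near the share of all genes), with Psmd12 called in all 4 libraries. Of 18 regulators of ribosome supply 5 had GR, among them Mdm2, Yy1 and Eif4ebp2 in both replicates and Myc in replicate 2. In GR replicate 2 the shares of these 8 lists ran from 26.7% to 57.1%, below the 67.5% of the cytosolic ribosomal protein genes. In GR replicate 1 the order differed: elongation factors (33.3%), other TOP mRNAs (28.6%), initiation factors and regulators (16.7% each) stood above the 13.8% of the ribosomal protein genes. With GR in at least 1 replicate, other TOP mRNAs (71.4%) stood above them as well (68.8%). The differences were not tested, and several lists hold few genes.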
